A study of Homo sapiens with 16 samples.

Results

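The beta-globin locus on chromosome 11 and the olfactory receptor genes beside it are described here by 7 genes, HBB, HBD, HBE1, OR51B4, OR51B2, OR51B5 and OR51B6. They were taken by name from the 18417 genes that the array table represents, and each of the 7 had a row. The locus was chosen by the measured difference of OR51B4 between STAG2-deficient and corrected H4 cells, so the H4 differences of these genes are given as a description, without a test. STAG2 belongs to cohesin, a ring-shaped complex that joins sister chromatids and extrudes chromatin loops.

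Total RNA from 16 growing cultures of 3 human cancer cell lines was measured on Affymetrix Human Gene 1.0 ST arrays, with 1 array per culture and no treatment. H4, labelled as glioblastoma cells, was represented by 3 STAG2-mutant cultures (clones 10 and 12, which are non-recombinant, and the parental line) and by 3 corrected clones, 8-1, 8-3 and 88-1, in which STAG2 was repaired by knock-in followed by Cre. 42MGBA, also labelled as glioblastoma cells, was represented by 3 deficient cultures (the mutant parental line and the knock-in clones 53 and 92 before Cre) and by the corrected post-Cre clones 53-1, 53-7 and 92-6. HCT116, a colorectal cancer line, was represented by the STAG2 knockout clones 7 and 21 and by the wild-type non-recombinant clones 24 and 27. Each clone grew from selected cells, and each clone or parental line was measured once. The spread between arrays thus mixes differences between clones, cultures and arrays, and a clone's own history cannot be told apart from its genotype.

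Beta-like globins pair with alpha-like globins to form haemoglobin, and red cell precursors are the usual place of their expression. The cluster is read in developmental order: HBE1 encodes the embryonic epsilon chain, HBG1 and HBG2 the fetal gamma chains, HBD the minor adult delta chain and HBB the adult beta chain. An enhancer array, the locus control region, lies next to HBE1 and drives the globin genes in erythroid cells. Binding sites of CTCF, a DNA-binding protein at which cohesin halts, flank the cluster. Beyond both ends lie olfactory receptor genes, which encode odorant receptors of the nasal epithelium and are silent in most other tissues. In RefSeq order the measured genes run HBB, HBD, HBE1, OR51B4, OR51B2, OR51B5 and OR51B6, with no other gene that has a row of its own between them. HBG1 and HBG2, which lie between HBD and HBE1, share their rows and are described apart.

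The values are log2 expression levels, so a difference of 1 is a doubling. The array median over all rows was 6.23 to 6.30 in H4, 6.24 to 6.29 in HCT116 and 5.0 to 5.05 in 42MGBA, whose levels are therefore on another scale and are placed against the other lines only as percentiles of an array's rows. A row under its array's median is called near background here, and one under the lower quartile (4.49 to 4.53 in H4, 3.38 to 3.41 in 42MGBA and 4.51 to 4.52 in HCT116) is called low. STAG2 itself fell by 2.19 in deficient against corrected H4 cells (limma adjusted p = 2.06e-05) and by 2.44 in knockout against wild-type HCT116 cells (limma adjusted p = 0.000104). It differed by -0.30 in deficient against corrected 42MGBA cells, with overlapping arrays (95% interval -0.69 to 0.09, limma adjusted p = 1). The STAG2 row thus does not separate the labelled groups in that line, and by itself it does not settle the labels. Of 9 glial or glioma markers, VIM and CD44 lay above the median on every H4 array and VIM, NES and CD44 on every 42MGBA array, but NES and CD44 did so on every HCT116 array too. The defining glial markers OLIG2 and SOX2 had mean percentiles of at most 47.6 in H4 and 30.8 in 42MGBA. GFAP lay at percentiles 44.6 to 50.2 in every group, HCT116 included. Of 7 measured erythroid markers none lay above the median on every array of either H4 group, whereas the erythroid factors KLF1 and GATA1, counted among the globin regulators, did so in both. KLF1 and GATA1 also did so in every 42MGBA and HCT116 group, so this place is not particular to H4.

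The 7 genes fell into separate classes by level, shown in the plot of all arrays by group. OR51B4, HBE1, OR51B5 and OR51B2 lay above the array median on 8, 7, 6 and 5 of the 16 arrays, all of them H4 or HCT116 arrays. OR51B6, HBD and HBB did not lie above it on any array. All 7 were near background on each of the 6 42MGBA arrays.

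**Figure D1:**
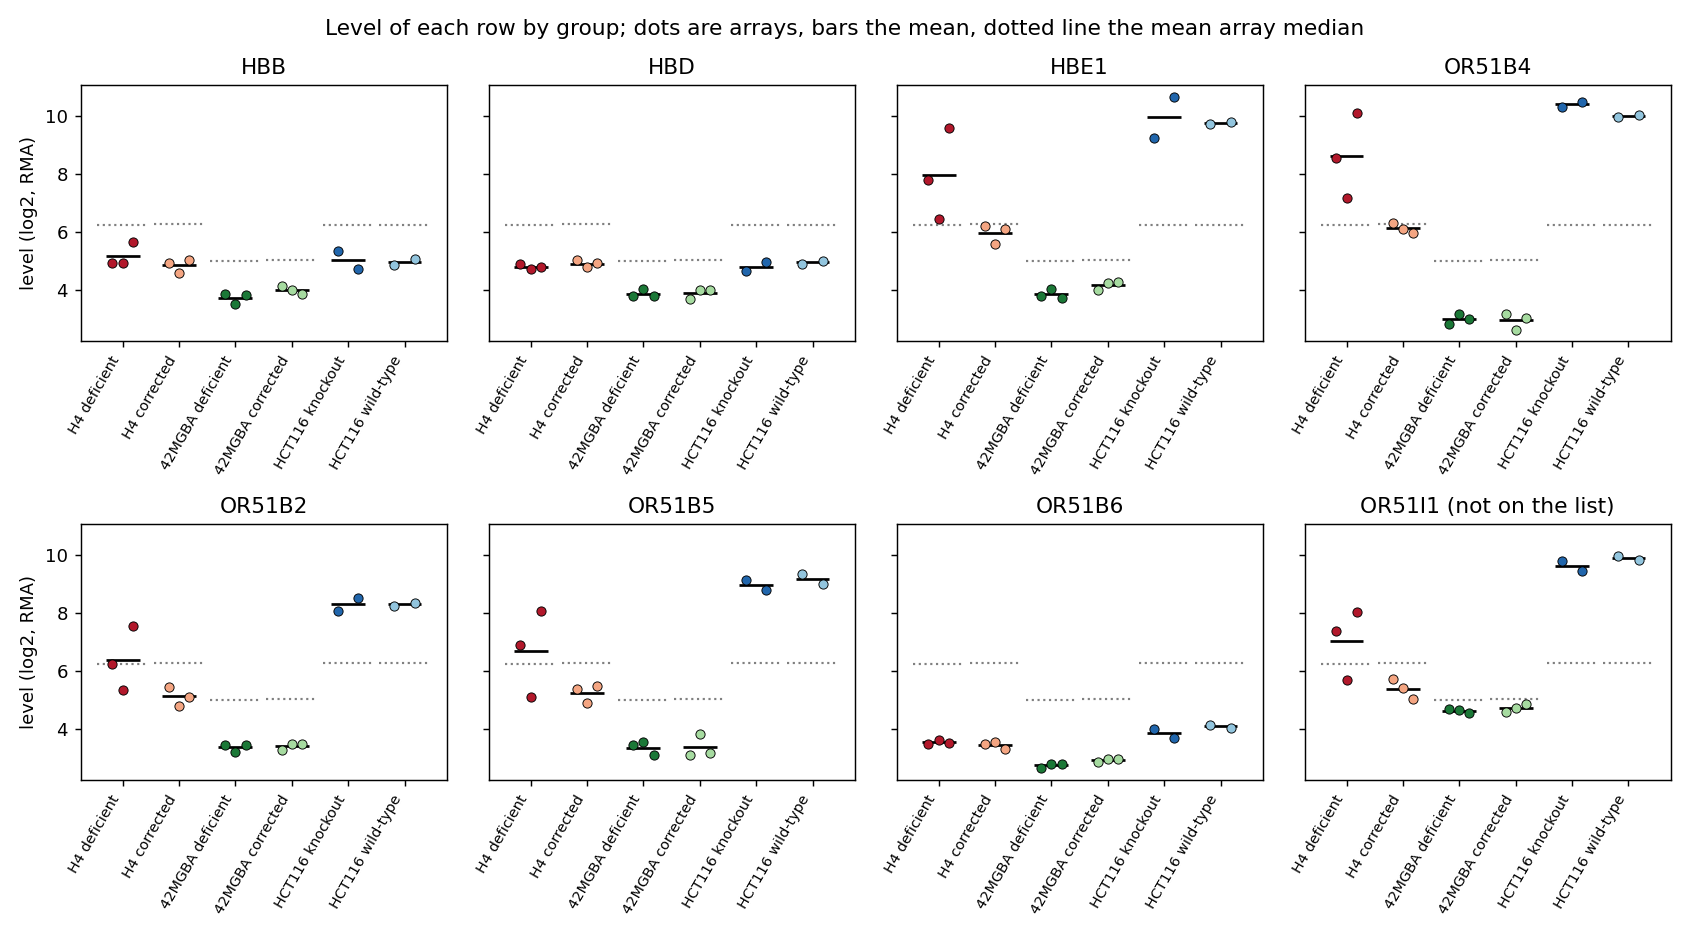
Level (log2, RMA) of the 7 genes and of the neighbour OR51I1 on each array, by group; dots are arrays, black bars group means and dotted lines the mean of the arrays' medians over all rows. OR51B4, HBE1, OR51B2, OR51B5 and OR51I1 were high in HCT116 and spread widely in H4 deficient cells, while HBB, HBD and OR51B6 stayed under the median.

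OR51B4 encodes an odorant receptor and is the first olfactory gene past the locus control region. Its level in H4 deficient cells was 8.55 in the parental line, 7.18 in clone 10 and 10.12 in clone 12, against 6.33, 6.13 and 5.98 in the corrected clones 8-1, 8-3 and 88-1. No deficient array overlapped a corrected one. Corrected clones 8-1 and 8-3 share a parent clone by their number, so the 3 corrected clones are not fully independent. The mean was 8.62 ± 1.47 in deficient cells and 6.15 ± 0.18 in corrected cells (SD, n = 3 each), a difference of 2.47 or 5.53-fold. The deficient arrays were far apart from each other, and in bulk RNA a larger share of expressing cells cannot be told apart from more RNA per cell. Clone 12 stood 3.97 above the mean of the corrected clones, the parental line 2.40 and clone 10 only 1.03, so without clone 12 the difference was 1.72 and without clone 10 it was 3.19. In HCT116 cells OR51B4 was 10.33 and 10.50 in knockout clones 7 and 21, against 9.97 and 10.04 in wild-type clones 24 and 27. Both knockout arrays lay above both wild-type arrays, as did those of 18% of all genes. The difference of 0.42 (SE 0.56, 95% interval -0.78 to 1.61) did not pass the test (limma adjusted p = 0.95). That SE carries the wide spread of the H4 arrays, since 1 spread is estimated per gene. With the H4 arrays left out, an alternative chosen after seeing the data, the SE was 0.17, the interval 0.04 to 0.79 and the limma adjusted p 0.597 (unadjusted 0.0347). In 42MGBA cells the level was 2.84, 3.18 and 3.02 in deficient cultures, against 3.19, 2.64 and 3.05 in corrected clones. These values overlapped and lay at percentiles 11 to 21.9 of their arrays. OR51B4 was thus low in 42MGBA by both definitions, while in HCT116 it lay at percentiles 91.9 to 94.6.

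HBE1, the embryonic epsilon globin gene on the other side of the locus control region, had a similar profile in H4. It was 7.81, 6.46 and 9.61 in the deficient parental line, clone 10 and clone 12, against 6.22, 5.59 and 6.10 in corrected clones 8-1, 8-3 and 88-1. The groups did not overlap, though clone 10 exceeded corrected clone 8-1 by little. The mean was 7.96 ± 1.58 in deficient cells and 5.97 ± 0.34 in corrected cells (SD, n = 3 each), a difference of 1.99 or 3.98-fold, which was 1.17 without clone 12 and 2.74 without clone 10. In HCT116 cells HBE1 was 9.25 and 10.68 in knockout clones 7 and 21, against 9.72 and 9.80 in wild-type clones. The knockout clones fell on either side of both wild-type clones. The difference was 0.20 (SE 0.65, 95% interval -1.19 to 1.59, limma adjusted p = 0.988), and it was 0.91 without knockout clone 7 and -0.51 without knockout clone 21. This SE also carries the H4 spread, and with the H4 arrays left out the interval was -0.52 to 0.92. In 42MGBA cells HBE1 was 3.80, 4.06 and 3.75 in deficient cultures, against 4.02, 4.24 and 4.29 in corrected clones, a difference of -0.31 with overlapping arrays (limma adjusted p = 1). It was near background there but not low, at percentiles 30.7 to 38.6.

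OR51B2 and OR51B5, odorant receptor genes that follow OR51B4, were higher on average in H4 deficient cells, with overlapping arrays. OR51B2 was 6.24, 5.36 and 7.57 in the deficient parental line, clone 10 and clone 12, against 5.45, 4.80 and 5.12 in corrected clones 8-1, 8-3 and 88-1, a difference of 1.27. Clone 10 lay below corrected clone 8-1. OR51B5 was 6.90, 5.12 and 8.07 in the same deficient cultures, against 5.38, 4.90 and 5.48 in the corrected clones, a difference of 1.45. Here clone 10 lay 0.13 below the corrected mean (-0.13), while clone 12 stood 2.82 above it. Without clone 12 the differences were 0.68 for OR51B2 and 0.76 for OR51B5, and without clone 10 they were 1.79 and 2.23.

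Both receptor genes were well above the median in HCT116 cells whatever their STAG2 genotype. OR51B2 was 8.07 and 8.52 in knockout clones, against 8.26 and 8.35 in wild-type clones (difference -0.01, SE 0.44, 95% interval -0.96 to 0.93, limma adjusted p = 0.999). OR51B5 was 9.15 and 8.79 in knockout clones, against 9.36 and 9.0 in wild-type clones (difference -0.21, SE 0.59, 95% interval -1.46 to 1.05, limma adjusted p = 0.986). In both genes the groups overlapped. The interval of OR51B5 leaves room for a change of more than 1 in either direction, but both intervals carry the spread of the H4 arrays. With the H4 arrays left out, the alternative chosen after seeing the data, they were -0.35 to 0.32 for OR51B2 and -0.73 to 0.31 for OR51B5. In 42MGBA cells OR51B2 was 3.45, 3.21 and 3.44 in deficient cultures, against 3.29, 3.50 and 3.49 in corrected clones (difference -0.06). OR51B5 was 3.46, 3.54 and 3.09 in deficient cultures, against 3.12, 3.82 and 3.18 in corrected clones (difference -0.01). Neither separated the groups, and both had a limma adjusted p of 1.

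OR51B6, the outermost of the 4 receptor genes, was low on every array. In H4 it was 3.48, 3.61 and 3.53 in deficient cultures, against 3.50, 3.55 and 3.31 in corrected clones, a difference of 0.08. In HCT116 it was 4.0 and 3.70 in knockout clones, against 4.15 and 4.03 in wild-type clones, a difference of -0.24 with both knockout arrays below (limma adjusted p = 0.721). As many as 20.4% of all genes had both knockout arrays below both wild-type arrays. In 42MGBA it was 2.65, 2.78 and 2.81 in deficient cultures, against 2.85, 2.95 and 2.96 in corrected clones, also without overlap (difference -0.17, limma adjusted p = 1), as for 6.33% of all genes. At this level no change of RNA is read from these differences.

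The adult globin genes stayed near background in all 3 lines. HBB was 4.93, 4.94 and 5.65 in H4 deficient cultures, against 4.93, 4.60 and 5.04 in corrected clones, a difference of 0.32 that was 0.08 without clone 12. Clone 12, which had the highest HBE1 and OR51B4, thus also had the highest HBB. In HCT116 HBB was 5.35 and 4.73 in knockout clones, against 4.87 and 5.09 in wild-type clones (difference 0.06, limma adjusted p = 0.991). In 42MGBA it was 3.86, 3.54 and 3.85 in deficient cultures, against 4.16, 4.0 and 3.88 in corrected clones, with every deficient array below (difference -0.27, limma adjusted p = 1). HBD was 4.90, 4.72 and 4.80 in H4 deficient cultures, against 5.03, 4.79 and 4.95 in corrected clones, and the groups overlapped (difference -0.11). It was 4.65 and 4.96 in HCT116 knockout clones, against 4.90 and 5.02 in wild-type clones (difference -0.15, limma adjusted p = 0.892). In 42MGBA HBD was 3.82, 4.03 and 3.80 in deficient cultures, against 3.71, 4.01 and 4.0 in corrected clones (difference -0.02, limma adjusted p = 1). HBD stayed at percentiles 26.8 to 35.1 over all 16 arrays, the narrow range of a row near background.

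The fetal gamma genes, which lie between HBD and HBE1, are nearly identical and share 2 rows with the same values on every array, so they cannot be told apart. Those rows were 5.57, 5.34 and 5.90 in H4 deficient cultures, against 5.43, 5.31 and 5.14 in corrected clones, and clone 12 was again the highest (difference 0.31). In HCT116 they were 5.66 and 6.37 in knockout clones, against 6.11 and 6.10 in wild-type clones, with the knockout clones on either side of the wild-type clones as for HBE1. They stayed under the array median on all but 1 array, HCT116 knockout clone 21. No row of these genes entered the test, since each lists 2 genes.

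Counted over the list, none of the 7 genes passed the threshold (limma, adjusted p under 0.05) between knockout and wild-type HCT116 cells, where 0.0923% of all 18417 genes did, 0.0597% higher and 0.0326% lower. None passed it between deficient and corrected 42MGBA cells either, where 0% of all genes did, although 771 genes had an unadjusted p under 0.05. At an unadjusted p under 0.05 the count of list genes was also 0 in both lines, against 7.13% of all genes in HCT116 and 4.19% in 42MGBA. With calls this rare in both lines, a count of 0 among 7 was close to what the background gives. For OR51B4 the SEs behind these counts carry the H4 spread, at 0.56 in HCT116 and 0.46 in 42MGBA. With the H4 arrays left out, the alternative chosen after seeing the data, they were 0.17 and 0.14. OR51B4 then had an unadjusted limma p of 0.0347 in HCT116. In H4, 2.45% of all genes were past the threshold, 0.89% higher and 1.56% lower in deficient cells. In that line 2 of the 7, OR51B4 and HBE1, had every deficient array above every corrected array, as did 10.3% of all genes, and none of the 7 had every deficient array below, as did 7.76%. OR51B4 was chosen by its H4 difference, and HBE1 followed it, so these H4 counts are a description and no comparison with chance. In 42MGBA none of the 7 had every deficient array above every corrected array, as did 2.92% of all genes, and 2 of the 7, OR51B6 and HBB, had every deficient array below, as did 6.33%. The knockout effect in HCT116 minus the deficiency effect in 42MGBA did not pass for any of the 7 (limma adjusted p = 0.998 for each). Its SE, which also carries the H4 spread, was 0.72 for OR51B4, 0.76 for OR51B5 and 0.84 for HBE1. For these genes it cannot decide whether the effects of the lines differ.

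The genes with level in H4 moved together from culture to culture, as the plot of the H4 arrays shows. In HBE1, OR51B4, OR51B2 and OR51B5, and in the neighbour OR51I1, clone 12 was the highest deficient culture, the parental line came next and clone 10 was the lowest. Clone 10 stood between -0.13 and 1.03 from the corrected mean in these 5 rows, and clone 12 between 2.45 and 3.97. Pearson's r between pairs of the 5 rows was 0.94 to 0.99 over the 6 H4 arrays, given as a description since the arrays share the difference by which OR51B4 was chosen. STAG2 was 6.57 in the parental line, 6.96 in clone 10 and 6.62 in clone 12, so clone 10, the lowest in the 5 rows, had the highest STAG2. A relation between STAG2 level and these rows was not tested. Over the 4 HCT116 arrays the same pairs had r of -0.91 to 0.96, and over the 6 42MGBA arrays -0.75 to 0.73.

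**Figure D2:**
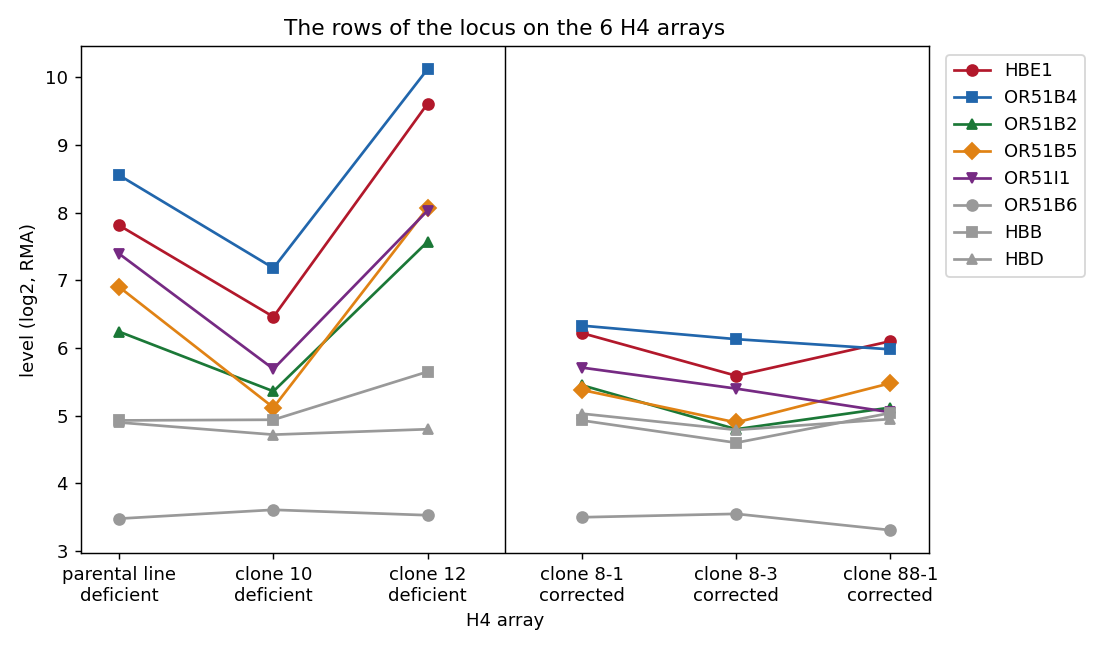
Level (log2, RMA) of the 7 genes and OR51I1 on the 6 H4 arrays, deficient cultures on the left and corrected clones on the right; each line joins the values of 1 row within a group. HBE1, OR51B4, OR51B2, OR51B5 and OR51I1 were highest in clone 12, where OR51B4 reached 10.12, and lowest among deficient cultures in clone 10, while HBD and OR51B6 stayed flat.

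The genes most like OR51B4 were looked for among the other 18416. Over all 16 arrays, with each line's mean subtracted, the highest r were 0.929 for OR51B2, 0.928 for HBE1, 0.926 for OR51I1, 0.923 for UBL7, which encodes a ubiquitin-like protein, and 0.913 for SLC17A1, which encodes a phosphate transporter of the kidney. The first 3 lie in the same stretch of the chromosome, and OR51B5 ranked 15 with 0.865. The SD of OR51B4 was 1.47 in H4 deficient cells and 0.05 to 0.29 in the other groups. The ranking thus mostly follows the H4 arrays by which OR51B4 was chosen. Over the HCT116 and the 42MGBA arrays alone, its r was 0.26 and -0.75 with OR51B2, 0.47 and -0.11 with HBE1, and -0.91 and -0.28 with OR51I1. In deficient against corrected H4 cells UBL7 was higher by 0.41 and SLC17A1 by 0.28, given without a test because both were picked for their likeness to OR51B4. Over the 6 H4 arrays alone the highest r were 0.997 for RRP36, 0.996 for NDUFB8 and for MARCHF1, 0.992 for GOLT1A and 0.990 for GEMIN6, with HBE1 at rank 28 and OR51I1 at rank 41. With 6 arrays and this many genes, such values are reached by genes whose H4 differences are small, such as 0.11 for NDUFB8.

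The region of raised signal in H4 was narrow when 10 measured neighbours on each side were added. Of the 20, 1 rose and 0 fell in deficient H4 cells, and 0 changed in either of the other lines, with an unadjusted limma p under 0.05 for 3 in H4, 0 in 42MGBA and 2 in HCT116. Over all genes such a p was reached by 13.8% in H4, 4.19% in 42MGBA and 7.13% in HCT116, so these counts are near the background. The gene that rose was OR51I1, an odorant receptor gene past OR51B6, with 7.39, 5.69 and 8.03 in the deficient parental line, clone 10 and clone 12, against 5.71, 5.40 and 5.05 in corrected clones 8-1, 8-3 and 88-1. The difference was 1.65 (SE 0.39, limma adjusted p = 0.0358), although clone 10 overlapped corrected clone 8-1. The locus was chosen on these same arrays, over which OR51I1 had an r of 0.97 with OR51B4, so the call is not separate support. That call held neither with the H4 line fitted alone (limma adjusted p = 0.246) nor with clones 8-1 and 8-3 averaged (limma adjusted p = 0.108). It did not hold without clone 12 either (limma adjusted p = 0.131), where the difference was 1.15. It was also lost without the parental line (limma adjusted p = 0.0816) and without clone 8-1, 8-3 or 88-1 (limma adjusted p = 0.0607, 0.109 and 0.127). The next genes on the globin side, from OR51V1 to OR51G1, gave no call, and OR52E2 was the furthest from 0 there with -0.50 (limma adjusted p = 0.157). On the far side TRIM22, an antiviral gene, was lower by 0.44 (-0.44, limma adjusted p = 0.254).

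RefSeq draws OR51B5 as a long gene whose span contains OR51B6, OR51M1, OR51Q1, OR51I1, OR51I2 and OR52D1, and how the array assigns signal within that span is not given in the sources used here. Of these 6, OR51I1 alone shared the H4 profile. OR51M1 was 4.57, 4.50 and 4.66 in H4 deficient cultures, against 4.45, 4.58 and 4.53 in corrected clones. In HCT116, OR51I2 was the nearest to a change, at 5.53 and 5.34 in knockout clones, against 5.98 and 5.65 in wild-type clones (difference -0.38, limma adjusted p = 0.696). OR51I1 was 9.80 and 9.44 in knockout clones, against 9.98 and 9.84 in wild-type clones (difference -0.30, limma adjusted p = 0.959).

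The difference between HCT116 and H4 was larger in size than that between STAG2 genotypes for HBE1, OR51B4, OR51B2, OR51B5 and OR51I1. It shares the H4 corrected arrays with the comparison behind the list, line and any separate handling of its arrays cannot be told apart, and it is given without a test. HCT116 wild-type cells exceeded H4 corrected cells by 3.80 in HBE1, 3.85 in OR51B4, 3.19 in OR51B2 and 3.93 in OR51B5, or 9.1-fold to 15.2-fold. OR51I1 was 4.53 higher. Over all genes the median of this difference was 0.06, and 1.14% of genes exceeded 2. HBB (0.13) and HBD (0.03) differed little between the lines, so the step on the globin side lay between HBD and HBE1. The shared gamma rows, from genes that lie between these, averaged 6.10 in HCT116 wild-type and 5.30 in H4 corrected cells. The raised stretch may therefore begin before HBE1.

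On the olfactory side the step lay after OR52D1. The remaining genes inside the OR51B5 span were also higher in HCT116 wild-type than in H4 corrected cells, by 0.64 for OR51B6, 0.99 for OR51M1, 0.72 for OR51Q1, 1.18 for OR51I2 and 0.96 for OR52D1. The next gene, UBQLNL, differed by 0.13. Among 338 olfactory receptor genes the 9 with the largest excess in HCT116 were OR51I1, OR51B5, OR51B4, OR51B2, OR51I2, OR51M1, OR52D1, OR51Q1 and OR51B6, which are 9 consecutive measured genes of this stretch. The next, OR8H2, differed by 0.54. Only the first 4 of them lay above the median of HCT116 arrays, and the others stayed near background, for example OR51M1 at a mean percentile of 38.2. Every HCT116 array lay above every H4 array in 3 of the 7 genes, OR51B2, OR51B5 and OR51B6, as in 20.1% of all genes. Both HCT116 wild-type arrays lay above the 3 H4 corrected arrays in 5 of the 7, all but HBB and HBD, as in 36.7% of all genes. In OR51B4 and HBE1 the lines met in H4 clone 12, which at 10.12 passed both HCT116 wild-type arrays in OR51B4 and at 9.61 passed knockout clone 7 in HBE1. In 42MGBA the same genes had mean percentiles of 34.8 for HBE1, 18.1 for OR51B4, 25.1 for OR51B2 and 24.6 for OR51B5.

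**Figure D3:**
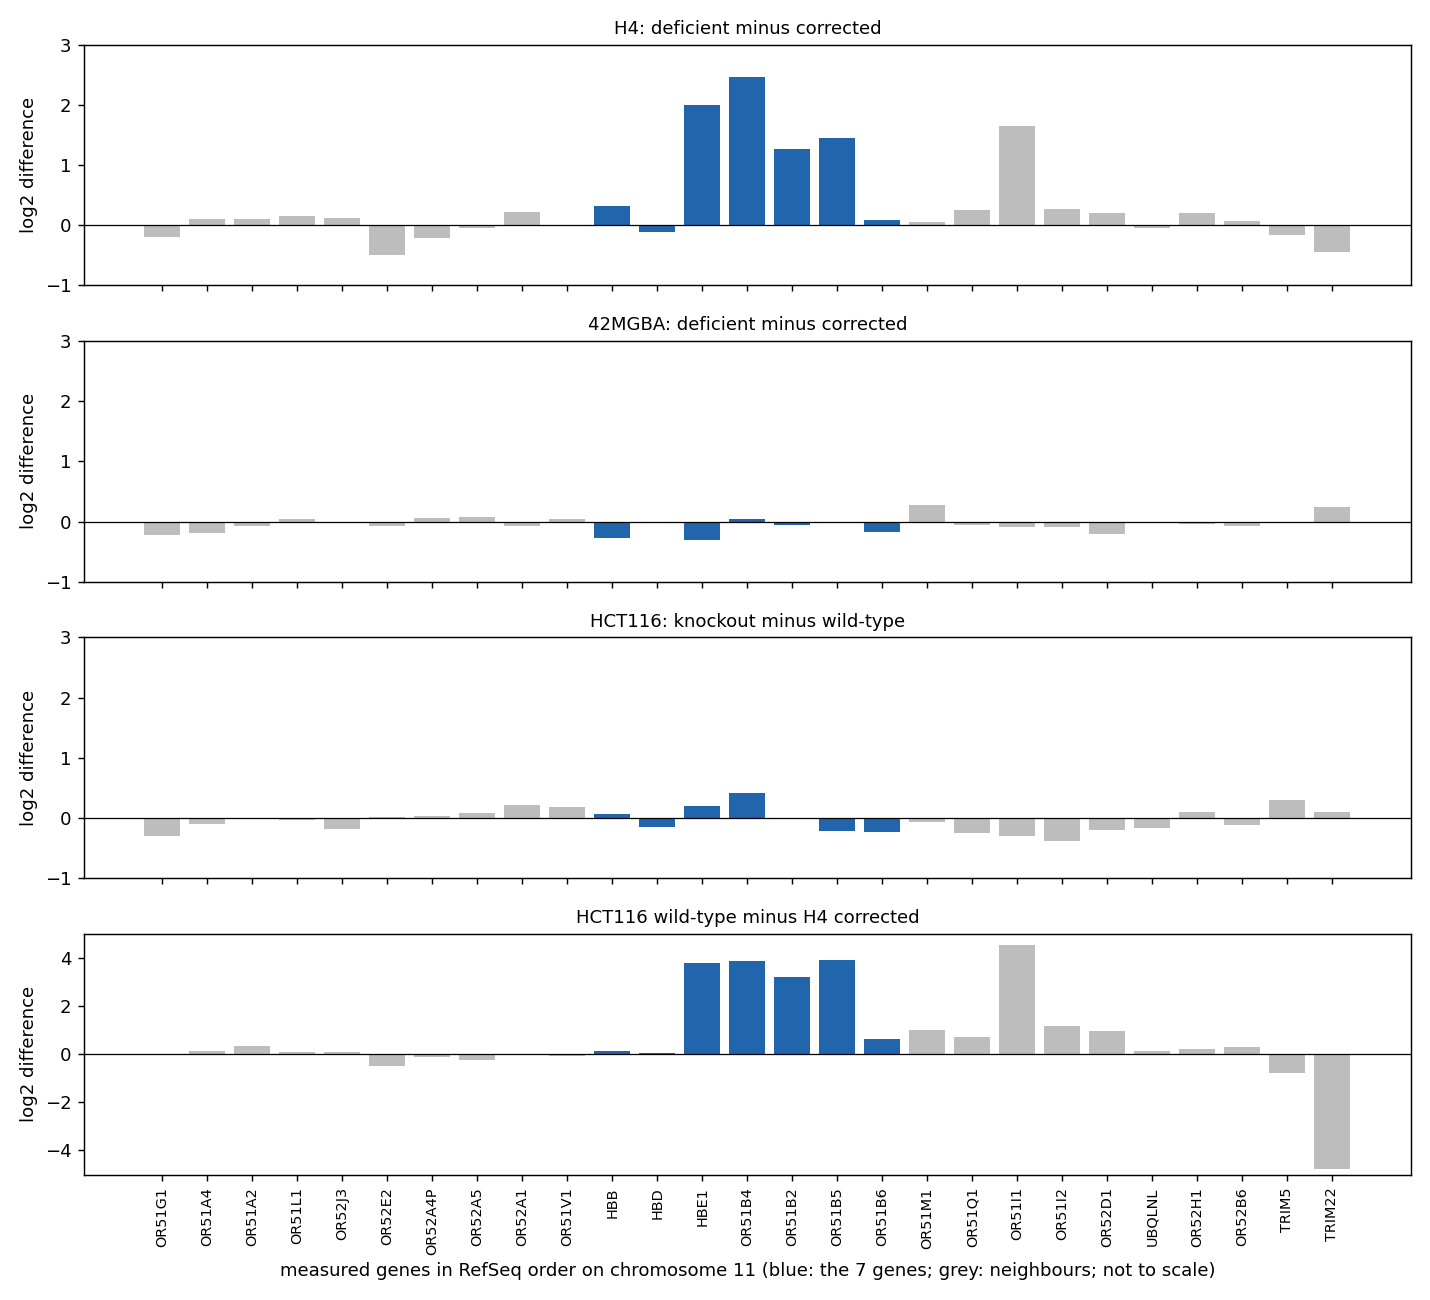
Log2 difference for each measured gene along chromosome 11 in RefSeq order, not to scale, for deficient minus corrected H4, deficient minus corrected 42MGBA, knockout minus wild-type HCT116 and HCT116 wild-type minus H4 corrected (bars; blue for the 7 genes, grey for 10 neighbours on each side). In H4 the tall bars are HBE1 to OR51B5 and OR51I1, up to 2.47. In the comparison of lines the raised stretch among the plotted genes runs from HBE1 to OR52D1, and the shared gamma rows before HBE1 are not plotted.

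Of the 334 olfactory receptor genes outside the list, 2 to 4 lay above the array median on H4 arrays, 11 to 16 on 42MGBA arrays, where all 7 listed genes lay under it, and 3 or 4 on HCT116 arrays. OR2H2 and OR52N2 were among those above it in H4, with means of 6.89 and 6.77 in deficient cells, against 7.0 and 6.74 in corrected cells. Between deficient and corrected H4 cells, 2 of the 334 rose and 2 fell, against 2.45% of all genes, and the median difference was 0.03 (0.02 over all genes). OR4A16, elsewhere on chromosome 11, rose by 1.5 to a mean of only 4.56 in deficient cells, against 3.06 in corrected cells (limma adjusted p = 0.0111). OR4N4 fell by 0.64 (limma adjusted p = 0.000749) and OR4M2 fell by 0.97 (limma adjusted p = 0.0369), and the fourth was OR51I1. With the line fitted alone, OR4A16 and OR4M2 missed the threshold, with limma adjusted p of 0.166 and 0.134. In 42MGBA and HCT116 cells 0 of the 334 were called by limma, where 0% and 0.0923% of all genes were. An unadjusted limma p under 0.05 was reached by 23 and 13 of them, against 4.19% and 7.13% of all genes. Their median differences were -0.01 and -0.03, against -0.03 and -0.01 over all genes.

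Genes through which odorant receptors signal gave no call. Of 12 measured, among them GNAL, the olfactory G protein alpha subunit, and ADCY3, the adenylyl cyclase it activates, 0 passed the threshold in any line by limma, a count close to the background. Over all genes 2.45% were called in H4, 0% in 42MGBA and 0.0923% in HCT116. An unadjusted limma p under 0.05 was seen for 3 in H4, 0 in 42MGBA and 0 in HCT116. Over all genes it was seen for 13.8%, 4.19% and 7.13%. In H4 REEP1 had the smallest p, with a mean of 5.62 in deficient and 6.14 in corrected cells (difference -0.52, limma adjusted p = 0.0791). GNAL had a mean of 7.24 in H4 deficient cells and 7.57 in corrected cells (limma adjusted p = 0.169). ADCY3 had a mean of 8.13 in deficient and 7.78 in corrected cells (limma adjusted p = 0.239). Every deficient array lay above for ADCY3, as for 10.3% of all genes, and below for REEP1 and GNAL, as for 7.76%.

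Among 7 measured erythroid markers limma called 0 in any line, also 0 at an unadjusted p under 0.05, and with so few genes such a count is close to the background. AHSP, the alpha-globin chaperone of red cell precursors, had a mean of 3.93 ± 0.12 in H4 deficient cells and 3.79 ± 0.03 in corrected cells (SD, n = 3 each), a low row. In HCT116, where HBE1 was high, AHSP averaged 4.04 in knockout and 4.01 in wild-type cells. Of 4 measured genes of the alpha-globin locus, which supplies the partner chains, 0 passed in any line, and 0 had an unadjusted p under 0.05. HBZ, the embryonic zeta chain, had a mean of 6.55 in H4 deficient and 6.37 in corrected cells (limma adjusted p = 0.595). Its mean percentile was 51.1 to 58.2 over the groups. No detection calls were used, so a place above the median is not read as expression.

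Among 17 known regulators of the globin genes, 0 rose and 1 fell in deficient H4 cells, and 0 changed in the other lines (unadjusted limma p under 0.05 for 2 in H4, 1 in 42MGBA and 1 in HCT116), near the background, with 1.56% of all genes called lower in H4. Over all genes such an unadjusted p was reached by 13.8% in H4, 4.19% in 42MGBA and 7.13% in HCT116. The gene that fell was SOX6, which in mice represses the embryonic epsilon globin gene in definitive red cells. It had a mean of 5.27 in deficient and 5.78 in corrected cells, a difference of -0.51 (SE 0.12, limma adjusted p = 0.0328), and both means lay under the array median. The call was lost in 9 of 14 alternatives, with a limma adjusted p of 0.136 when the line was fitted alone. GATA2, an early haematopoietic factor, was higher by 0.36 in HCT116 knockout cells without passing (limma adjusted p = 0.437), and BCL11A, a repressor of fetal globin, had means of 5.20 in knockout and 4.93 in wild-type cells (limma adjusted p = 0.829).

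Of 11 measured boundary and cohesin genes, STAG2 fell in H4 and HCT116 and no other passed the threshold in any line. Over all genes, 2.45% were called in H4 and 0.0923% in HCT116. An unadjusted limma p under 0.05 was reached by 3 of the 11 in H4, 0 in 42MGBA and 2 in HCT116, counting STAG2. Over all genes it was reached by 13.8%, 4.19% and 7.13%. SMC3 differed by -0.26 in deficient against corrected H4 cells (limma adjusted p = 0.306). NIPBL differed by 0.33 in knockout against wild-type HCT116 cells (limma adjusted p = 0.622). CTCF had means of 9.68 in H4 deficient and 9.71 in corrected cells (difference -0.03, limma adjusted p = 0.947). In HCT116 it had 9.92 in knockout and 9.81 in wild-type cells (limma adjusted p = 0.905). STAG1, the paralogue that can replace STAG2 in cohesin, was 9.01 in H4 deficient and 8.74 in corrected cells (limma adjusted p = 0.321). Binding of these proteins at the locus was not measured.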

How the data were processed

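The deposited table holds 33297 rows of log2 values on 16 arrays. Per the submitters' processing notes the authors used RMA in Affymetrix Expression Console. Versions, settings and the annotation's build are not given in the sources used here, and the log2 scale was read from the range of the values. RMA subtracts background, brings the arrays it is run on to a common distribution and summarises probes, and 42MGBA arrays lie on another scale.

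Groups came from the sample titles. Rows with 1 gene symbol (19460, updated through RefSeq names of GRCh38.p14 for 19429) stood for 18417 genes, each by the row with the highest mean. All genes were fitted, without a filter on dim rows, with limma 3.58.1 in R 4.3.3, 1 fit of 6 groups over 16 arrays, and two-sided p-values got a Benjamini-Hochberg adjustment over all genes, with a threshold of 0.05. The fit was tested on simulated data in which a gene had the same spread in every group. That setting lacks the wide spread of genes such as OR51B4 in H4 deficient cells. The number of arrays limits the precision, and p-values rest on the spread between cultures, pooled over the 6 groups. Within each line arrays correlated at r of at least 0.986 and no pair was identical. The 7 genes and the gene lists were chosen with earlier results of these data known. All 7 genes are named; of each list, genes past the threshold or among the 3 smallest p of a line; and the 5 genes most like OR51B4. Neighbours were ordered by RefSeq, whose coordinates are not printed. By their numbers, corrected clones 8-1 and 8-3 share a parent clone, 53-1 and 53-7 descend from clone 53, and 92-6 from clone 92. The 42MGBA parents were tried as a block. Alternatives covered the filter, the spread, the arrays in the fit, scaling, rows per gene and replicates left out.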

Additional observations from a re-analysis of the deposited data

How the results depend on the processing

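No alternative brought any of the 7 genes past the threshold in HCT116 or 42MGBA, where the count stayed at 0 with each array left out too. The H4 difference of OR51B4 ranged from 1.72 to 3.19 with 1 array left out. Over all genes the count of calls in H4, 451 with all arrays, was 37 with the line fitted alone, 194 without the 42MGBA arrays, 177 with corrected clones of 1 parent averaged, and 181 to 654 with 1 array left out. In HCT116 the count of 17 was 3 with the line fitted alone, 7 without the 42MGBA arrays, and 5 to 94 with 1 array left out, the highest without knockout clone 7. In 42MGBA the count of 0 was 0 to 6 with 1 array left out. With the parent clone as a replicate block in 42MGBA, the count of calls and of list genes stayed at 0, and the difference of HBD was 0.01 against -0.02 without the block.

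Some small differences changed sign without any call. In 42MGBA, OR51B5 was 0.01 after centring on array medians and 0.04 with clones averaged, HBD was 0.01 without the parental arrays, and with 1 array left out OR51B4 ranged from -0.11 to 0.17, OR51B2 from -0.13 to 0.02, OR51B5 from -0.14 to 0.21 and HBD from -0.12 to 0.03. In HCT116, leaving out 1 array gave -0.24 to 0.21 for OR51B2, -0.25 to 0.37 for HBB and -0.51 to 0.91 for HBE1. The cause was not tested.

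OR51I1 in H4 stayed past the threshold in 6 of 15 alternatives, with a limma adjusted p from 2.72e-05 without clone 10 to 0.246 with the line alone, and OR4N4 in 14 of 14. STAG2 stayed past it in H4 in 15 of 15 and in HCT116 in 11 of 12 alternatives. With 2 or 3 arrays a group, and OR51B6, HBD and HBB near background, smaller changes of the 7 genes were not detectable.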
